A study of Homo sapiens with 7 samples.

Results

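Levels of 9 long noncoding RNAs were followed across 7 RNA sequencing libraries of 769-P, a long-established line of human kidney cancer cells of the clear cell type: MIR205HG, MIR22HG, MIR17HG, MIR31HG, MIR210HG, MALAT1, NEAT1, GAS5 and SNHG1. They are 9 of the 33117 gene identifiers in the deposited tables, were found by symbol, and each has a single identifier there. The set was chosen by the TPM of MIR205HG, whose fall in both pairs of Lat-M libraries against PA was already known, and the choice of the other 8 rests on no stated value. That difference is therefore given as a description with no test. The other 8 RNAs were tested, although they and the gene lists below were chosen with earlier results of these data known.

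The libraries fell into 3 groups: Lat-M1 with 2 libraries, Lat-M2 with 2 and PA with 3. The labels describe Lat-M cells as latent metastatic and do not expand PA. Lat-M1 and Lat-M2 stand for the first number of the library name, whose meaning the labels do not give. All cells were 769-P grown in medium with fetal bovine serum, and the labels name no further treatment, genotype or clone. Whether libraries of a group came from separate cultures is not stated, so a p-value reflects no more than library-to-library spread, which may be technical.

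A microRNA host gene is a longer RNA that carries the hairpin of a microRNA in an exon or intron, from which the hairpin is cut in the nucleus. The short mature microRNA then guides an Argonaute protein to messenger RNAs, mainly through its seed, the bases 2 to 8 from its 5′ end. MIR205HG hosts miR-205, known from basal epithelia, where it represses the mesenchymal transcription factors ZEB1 and ZEB2. MIR17HG hosts the growth-promoting miR-17-92 cluster, which MYC activates, and MIR210HG hosts miR-210, which is induced by hypoxia. MIR31HG and MIR22HG host miR-31 and miR-22. MALAT1 is an abundant nuclear RNA of nuclear speckles, which store splicing factors, and NEAT1 is the scaffold of paraspeckles, nuclear bodies that hold RNA-binding proteins. GAS5 and SNHG1 carry box C/D snoRNAs, guides of ribosomal RNA methylation, in their introns, and their spliced RNAs are removed by nonsense-mediated decay.

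The microRNAs that give the hosts their names are given here as RefSeq mature sequences, because the hosts were measured here and the mature microRNAs were not. Capitals mark the seed.
miR-205-5p: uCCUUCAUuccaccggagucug
miR-205-3p: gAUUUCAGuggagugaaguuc
miR-31-5p: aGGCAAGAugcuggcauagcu
miR-22-3p: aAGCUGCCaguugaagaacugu
miR-210-3p: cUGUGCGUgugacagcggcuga
miR-17-5p: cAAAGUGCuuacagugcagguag
miR-20a-5p: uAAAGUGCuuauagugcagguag
miR-18a-5p: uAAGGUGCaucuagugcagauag
miR-19a-3p: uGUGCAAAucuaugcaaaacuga
miR-19b-3p: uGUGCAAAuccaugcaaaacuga
miR-92a-3p: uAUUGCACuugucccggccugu
Within the MIR17HG cluster, miR-17-5p and miR-20a-5p share the seed AAAGUGC, and miR-19a-3p and miR-19b-3p share GUGCAAA. The seed of miR-18a-5p, AAGGUGC, and that of miR-92a-3p, AUUGCAC, are found once each among the 19 mature sequences of these hosts. No seed was shared between 2 different hosts.

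The microRNAs sit differently in their hosts, by GENCODE v29 on GRCh38. MIR205HG spans chr1:209428820-209432838 on the plus strand, and miR-205-5p, at chr1:209432166-209432187, is intronic in 8 of its 10 annotated transcripts and outside the other 2. miR-205-3p, at chr1:209432203-209432223, runs over an intron-exon border in 7 of these transcripts. The miR-22 arms are exonic in all 19 transcripts of MIR22HG, a gene at chr17:1711493-1717174 on the minus strand. The miR-210 arms are intronic in all 4 transcripts of MIR210HG, at chr11:565660-568457 on the minus strand. The miR-17-92 arms are exonic in 2 and intronic in 1 of the 3 transcripts of MIR17HG, at chr13:91347820-91354579 on the plus strand. MIR31HG, at chr9:21455642-21559669 on the minus strand, has 1 transcript with an exonic length of 745 bases spread over 104028 bases, and miR-31-5p lies in an intron of it. How the submitters' quantification treated reads from introns or hairpins is not given in the sources used here.

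MALAT1, at chr11:65497688-65506516, and NEAT1, at chr11:65422774-65445540, are both on the plus strand, and every base of either span is exonic in some transcript. GAS5 lies at chr1:173863900-173868882 and SNHG1 at chr11:62851988-62855914, both on the minus strand. Of 10 snoRNA symbols of GAS5 and 8 of SNHG1, 3 and 2 are listed in the deposited tables, but none of their identifiers matched a position inside the host, so no snoRNA value is given.

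The start regions of MIR205HG and MIR31HG are shown because these are the members with the widest differences in level between the groups. Each is a RefSeq window of 250 bases before to 50 bases after the RefSeq gene start on GRCh38.p14, chr1:209428570-209428869 on the plus strand and chr9:21559749-21560048 on the minus strand. RefSeq starts can differ from those of GENCODE v29. The MIR31HG window lies wholly upstream of the GENCODE v29 span given above, whose 5′ end is at chr9:21559669. Capitals mark CpG dinucleotides.
MIR205HG: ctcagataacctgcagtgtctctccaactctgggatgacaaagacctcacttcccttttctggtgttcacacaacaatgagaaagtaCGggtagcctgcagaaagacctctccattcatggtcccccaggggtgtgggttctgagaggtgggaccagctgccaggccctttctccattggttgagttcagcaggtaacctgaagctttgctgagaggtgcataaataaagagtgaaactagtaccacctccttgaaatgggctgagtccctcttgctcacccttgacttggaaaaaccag
MIR31HG: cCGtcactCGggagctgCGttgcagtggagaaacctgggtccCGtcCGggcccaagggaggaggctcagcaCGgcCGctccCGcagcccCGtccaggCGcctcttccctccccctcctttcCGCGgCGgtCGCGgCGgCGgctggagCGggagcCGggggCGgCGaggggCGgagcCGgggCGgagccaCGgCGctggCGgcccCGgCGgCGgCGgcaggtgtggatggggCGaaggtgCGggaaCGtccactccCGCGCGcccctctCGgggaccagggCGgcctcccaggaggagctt
The MIR205HG window holds 1 CpG and has a GC content of 50.3%, whereas the MIR31HG window holds 39 CpGs and has a GC content of 77.7%. The median over 35116 RefSeq windows of this length was 14 CpGs. Of the core of the hypoxia response element only the form ACGTG was searched, on both strands. These letters are part of the longer E-box CACGTG. They occur in 21.4% of the windows, 1 time each in those of MIR210HG and MIR22HG, and not in those of MIR205HG, MIR31HG, MIR17HG, MALAT1, GAS5 or SNHG1. CACGTG itself occurs in 7.3% of windows and in none of these. The AP-1 letters TGAGTCA, also searched on both strands, occur in 4.9% of windows and in none of these. Neither presence nor absence of letters in such a window shows binding of a factor, and no binding was measured.

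Values are TPM, a level per transcript length scaled to the same sum in every library. Read totals cannot be recovered from TPM and depth is thus unknown; 16136 to 16872 genes reached 1 TPM. By correlation of log2(TPM + 1), libraries of a group had r of at least 0.9834 and those of different groups r of at most 0.9779. The signal recognition particle RNAs RN7SL1 and RN7SL2 with RN7SK and RMRP, together 4 structural RNAs, took 21.9% and 18.6% of the TPM in Lat-M1, 22.9% and 27.7% of that in Lat-M2 and 29.5% to 31.8% of that in PA, and over all tested genes the median log2 difference was 0.16 for Lat-M1 minus PA, 0.14 for Lat-M2 minus PA and -0.011 for Lat-M2 minus Lat-M1. Each member is therefore also given after scaling the libraries by their median ratio, which brings these medians to within 0.011 of 0.

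The renal lineage gene PAX8 was at 65.7 to 87.9 TPM in the 7 libraries, and KRT18 and VIM, which renal carcinoma lines express, were at 258.9 to 441.0 and 1981 to 2428 TPM. They belong to a list of 6 renal markers, of which 5 reached the mean of 1 TPM needed for testing. Levels of the others on that list, PAX2, CDH6 and KRT8, are not reported here. Of 3 listed leukocyte markers PTPRC and LYZ stayed under 1 TPM in every library, as did all 3 listed endothelial markers and 4 of 5 fibroblast and pericyte markers. The exceptions were CD68, at 14.1 and 15.5 TPM in Lat-M1, 39.7 and 41.8 TPM in Lat-M2 and 45.6 to 48.2 TPM in PA, and COL1A1, at 19.3 and 20.6 TPM in Lat-M1, 2.91 and 3.72 TPM in Lat-M2 and 1.04 to 1.37 TPM in PA. The summed leukocyte markers thus ran at 14.1 to 15.5, 39.7 to 41.8 and 45.6 to 48.2 TPM in Lat-M1, Lat-M2 and PA, and the fibroblast and pericyte sum at 20.0 to 21.7, 3.11 to 4.08 and 1.41 to 1.74 TPM, while PTPRC, LYZ, COL3A1, DCN and LUM were at or near 0. The part of CD68 or COL1A1 expression in the members' differences was not tested. In such bulk libraries fewer expressing cells and less RNA per cell cannot be told apart.

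**Figure D1:**
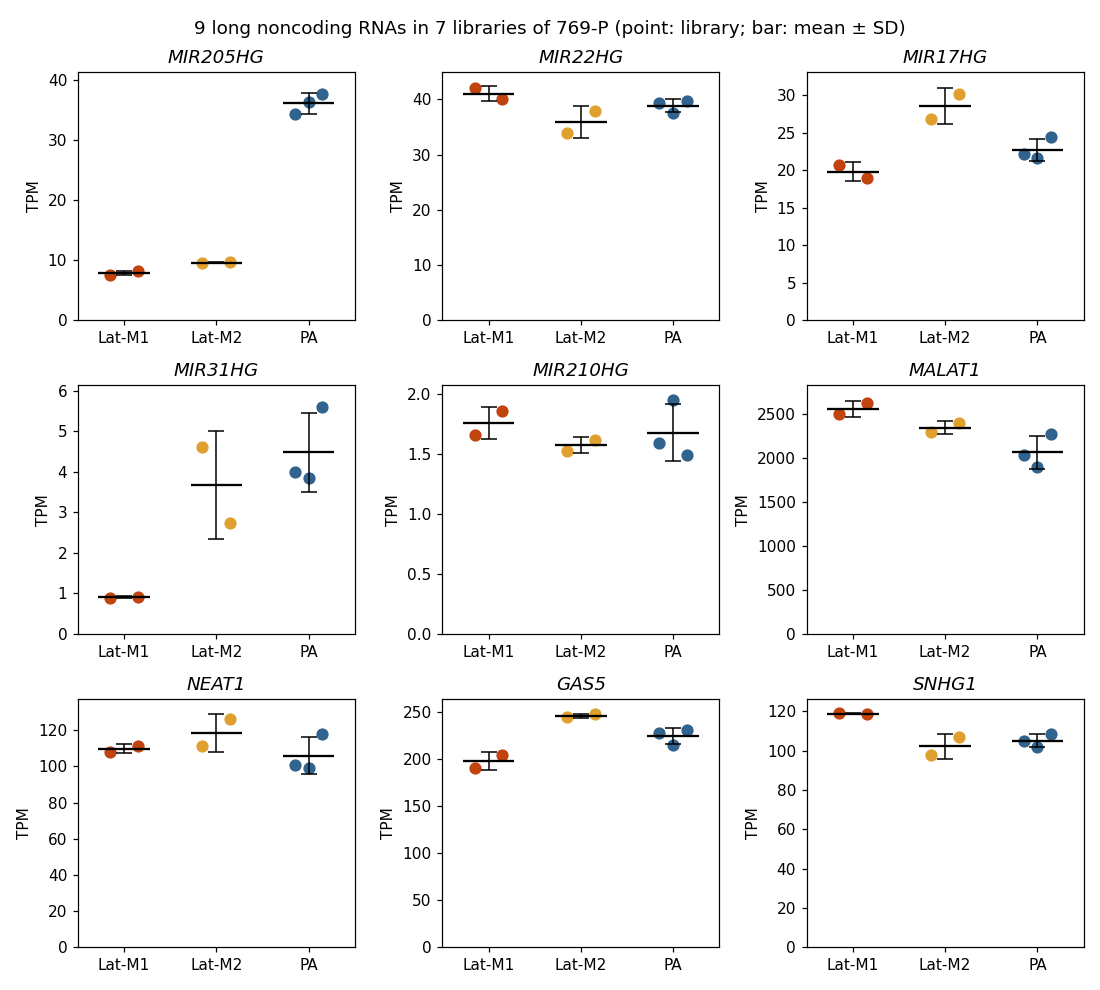
Level of each of the 9 RNAs in TPM (vertical axes, from 0) in the Lat-M1, Lat-M2 and PA libraries; points are libraries, and bars the mean ± SD. MIR205HG lies under 10 TPM in the 4 Lat-M libraries and between 34.3 and 37.7 TPM in PA, and MIR31HG lies under 1 TPM in Lat-M1 alone.

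The members differed widely in level. MALAT1 was the most abundant, at 1899 to 2626 TPM, and ranked 18 to 29 among all listed genes. GAS5 followed at 190.9 to 248 TPM. NEAT1, at 99.3 to 126 TPM, and SNHG1, at 97.7 to 119 TPM, overlapped in PA. MIR22HG, at 33.9 to 42.0 TPM, overlapped with MIR205HG in PA, and MIR17HG lay at 18.96 to 30.3 TPM. MIR31HG and MIR210HG were the lowest, and MIR31HG was above MIR210HG in every Lat-M2 and PA library but below it in both Lat-M1 libraries.

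MIR205HG was at 7.58 and 8.13 TPM in Lat-M1, at 9.52 and 9.72 TPM in Lat-M2, and at 34.3, 36.3 and 37.7 TPM in PA. All 4 Lat-M libraries were far below all 3 PA libraries. The means were 7.86 ± 0.389 TPM in Lat-M1 (SD, n = 2), 9.62 ± 0.141 TPM in Lat-M2 (SD, n = 2) and 36.1 ± 1.72 TPM in PA (SD, n = 3), which makes the Lat-M1 mean 0.218 and the Lat-M2 mean 0.267 of the PA mean. On the log2(TPM + 1) scale the differences were -2.07 ± 0.067 (SE) for Lat-M1 minus PA and -1.80 ± 0.067 (SE) for Lat-M2 minus PA, and after scaling -2.23 and -1.95. These 2 comparisons share the same 3 PA libraries. The choice of MIR205HG did not rest on the difference between the Lat-M groups, but it used the same Lat-M libraries. That difference was 0.26 ± 0.073 (SE) for Lat-M2 minus Lat-M1. Its adjusted p was 0.028 by limma with Benjamini-Hochberg adjustment over 16724 genes, and is not independent of the choice. Both Lat-M2 libraries were above both Lat-M1 libraries. This call was lost without any 1 of the 4 Lat-M libraries or without PA replicate 2, with differences of 0.22 to 0.31 and adjusted p between 0.0514 and 0.151 by limma.

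TP63, the basal epithelial transcription factor linked to MIR205HG, was at 0.0682 to 0.118 TPM in Lat-M and at 0 to 0.0276 TPM in PA, under the level tested. LAMB3, a laminin chain gene of basement membranes on the opposite strand 182.0 kb from MIR205HG, was at 118.6 and 127.7 TPM in Lat-M1, at 54.5 and 47.6 TPM in Lat-M2 and at 33.0 to 40.2 TPM in PA. It was higher in Lat-M1 than in PA by 1.71 (adjusted p 1.8e-05) and in Lat-M2 than in PA by 0.45 (adjusted p 0.029, and 0.052 after scaling), so that it stood on the other side of PA from MIR205HG. CAMK1G, a kinase gene between them, was at 0.176 TPM or less in all 7 libraries.

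Of 8 genes reported as miR-205 targets, 7 were tested. Among them, in Lat-M1 minus PA 4 were higher and 1 was lower, in Lat-M2 minus PA 2 were higher and 1 was lower, and in Lat-M2 minus Lat-M1 1 was higher and 3 were lower, with medians of 0.41, 0.059 and -0.21 beside 0.16, 0.14 and -0.011 over all tested genes. Called were 71.4%, 42.9% and 57.1%, beside 44.8%, 14.9% and 36.0% of all tested genes and 54.5%, 18.6% and 43.7% of protein-coding ones. Scaling left each count of higher and lower targets as it was. ZEB1 was at 32.4 and 34.9 TPM in Lat-M1, 26.4 and 26.6 TPM in Lat-M2 and 23.0 to 26.0 TPM in PA, higher in Lat-M1 than in PA by 0.44 (adjusted p 0.0018). The receptor tyrosine kinase gene ERBB3 was at 0.185 and 0.102 TPM in Lat-M1, 8.44 and 7.85 TPM in Lat-M2 and 4.05 to 4.58 TPM in PA, a log2 difference of -2.23 in Lat-M1 (adjusted p 8.1e-06) and of 0.77 in Lat-M2 (adjusted p 0.008). INPPL1, an inositol phosphatase gene, was higher in Lat-M1 than in PA by 0.80 (adjusted p 8.9e-05) and lower in Lat-M2 than in PA (log2 difference -0.25, adjusted p 0.044). VEGFA, the angiogenic growth factor, was higher in both, by 0.47 in Lat-M1 (adjusted p 0.0014) and by 0.48 in Lat-M2 (adjusted p 0.0081). ZEB2 was at 0.676 to 1.06 TPM and was not tested.

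The genes whose levels followed MIR205HG most closely over the 7 libraries, by Pearson's r of log2(TPM + 1), were SERPINA1 (0.9958), SLC25A21 (0.9951), PITPNC1 (0.9944), SGCE (0.9941) and RETSAT (0.9923). The 7 libraries form 3 groups, so such values of r mostly measure the order and spacing of the group levels. SERPINA1, which encodes alpha-1 antitrypsin, was at 12.3 and 12.6 TPM in Lat-M1, 13.9 and 12.7 TPM in Lat-M2 and 25.5 to 25.7 TPM in PA. SLC25A21, a mitochondrial carrier gene, was at 0.763 and 0.846 TPM in Lat-M1, 1.04 and 1.26 TPM in Lat-M2 and 4.49 to 5.16 TPM in PA. SGCE, a sarcoglycan gene, and RETSAT, a retinol saturase gene, were at 38.3 to 39.8 and 49.2 to 52.3 TPM in the Lat-M libraries, against 65.6 to 67.5 and 67.9 to 72.1 TPM in PA.

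Against PA, 4 of the 8 other members were called in Lat-M1 at an adjusted p under 0.05: MALAT1 and SNHG1 were higher and MIR31HG and GAS5 lower. Of all tested genes, 44.8% were called in this comparison, 33.2% higher and 11.6% lower. Long noncoding genes, many of them at low TPM, had 29.2% of 1913 tested genes called. The members' share of 50% was thus close to the all-gene share and above that of long noncoding genes, without matching for level. For Lat-M2 minus PA 1 of 8 was called, MIR17HG, which was higher, and 14.9% of all genes were called, 12.7% higher and 2.24% lower. In Lat-M2 minus Lat-M1 5 of 9 were called, with MIR205HG, MIR17HG, MIR31HG and GAS5 higher and SNHG1 lower, while 36.0% of all genes were called, 16.0% higher and 20.1% lower. MIR205HG, whose values in these libraries set the choice, is among these 5. Among long noncoding genes 7.95% were called in Lat-M2 minus PA and 23.9% in Lat-M2 minus Lat-M1. After scaling, the calls in Lat-M1 minus PA were MIR17HG, MIR31HG and GAS5, all lower, no member was called in Lat-M2 minus PA by limma (2 had an unadjusted p under 0.05), and SNHG1 was no longer called in Lat-M2 minus Lat-M1. The direction of calls over all genes moved as well, since 5558 of 7499 calls were higher in Lat-M1 than in PA as deposited and 4000 of 7842 after scaling, and 2119 of 2494 were higher in Lat-M2 than in PA as deposited and 1245 of 2650 after scaling.

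**Figure D2:**
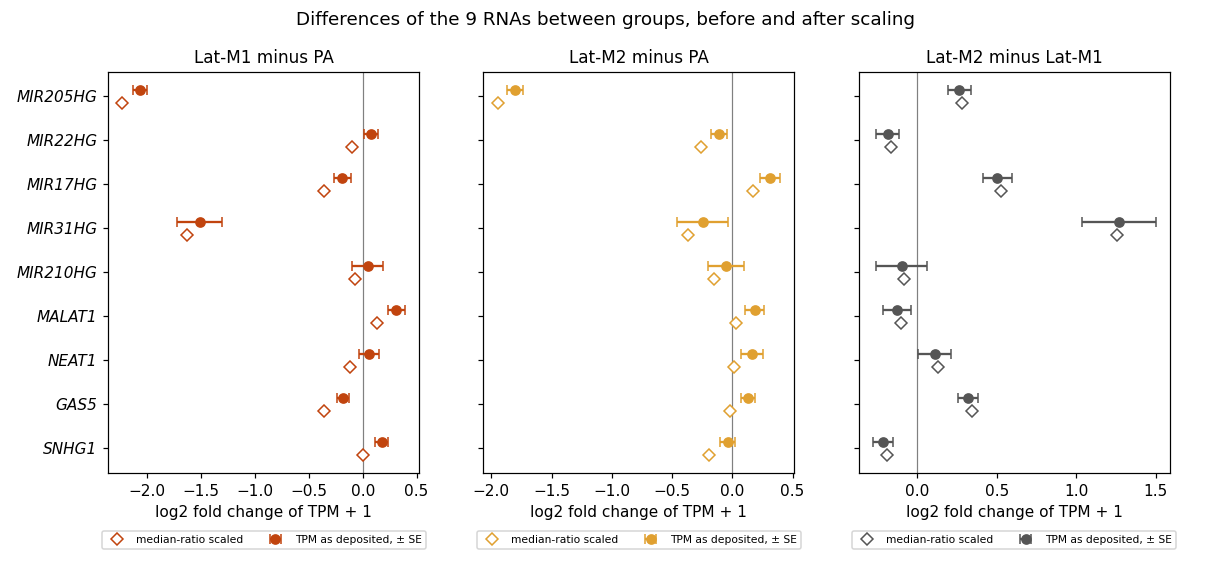
Differences of log2(TPM + 1) between groups (horizontal axes) for the 9 RNAs; filled points are values as deposited with their SE, and open diamonds are values after median-ratio scaling. MIR205HG and MIR31HG stand well away from 0 in Lat-M1 minus PA under either treatment, while MIR22HG, MIR210HG and NEAT1 change sign there with the scaling and GAS5 does so in Lat-M2 minus PA.

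Among the 9 RNAs MIR31HG showed the widest difference between the Lat-M groups. It was at 0.885 and 0.920 TPM in Lat-M1, at 4.63 and 2.73 TPM in Lat-M2, and at 4.00, 3.85 and 5.61 TPM in PA. Both Lat-M1 libraries were below all other libraries, and the Lat-M2 libraries overlapped with PA. It fell by 1.51 on the log2 scale in Lat-M1 against PA (SE 0.21, adjusted p 0.0011 by limma; -1.63 after scaling) and was higher in Lat-M2 than in Lat-M1 by 1.27 ± 0.23 (SE, adjusted p 0.0051 by limma). The size depends on the pseudocount at these low levels: with 0.1 TPM added in place of 1 the differences were -2.17 and 1.87, and the Lat-M1 mean was 0.201 of the PA mean. Between Lat-M2 and PA the difference was -0.25 ± 0.21 (SE, adjusted p 0.45), and without Lat-M2 replicate 2 it was 0.05. The 2 calls that involve Lat-M1 held without each library in turn, with adjusted p of at most 0.0298 by limma.

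IFNE, the interferon epsilon gene, lies within the MIR31HG span on the same strand and touches no exon of it. It was at 0.128 and 0.532 TPM in Lat-M1, at 2.88 and 2.76 TPM in Lat-M2, and at 2.86, 2.01 and 2.66 TPM in PA. It differed by -1.41 in Lat-M1 minus PA (adjusted p 0.00097 by limma), by 0.13 in Lat-M2 minus PA (adjusted p 0.67) and by 1.54 in Lat-M2 minus Lat-M1 (adjusted p 0.0013), so its levels were placed across the groups as those of its neighbour. The MIR31 hairpin entry, also inside MIR31HG, was listed at 0 and 4.14 TPM in Lat-M1, 4.16 and 4.30 TPM in Lat-M2 and 1.45 to 6.26 TPM in PA and was not called. Farther along chromosome 9, MTAP, a methionine salvage gene 242.9 kb away, was lower in Lat-M1 than in PA (log2 difference -0.38, adjusted p 0.0051). CDKN2A, 408.1 kb away, was at 2.57 to 3.83 TPM and not called in any comparison, and CDKN2B, 443.2 kb away, was higher in Lat-M1 than in PA by 1.17 (adjusted p 5.1e-05) and in Lat-M2 than in PA by 0.48 (adjusted p 0.016). Both encode inhibitors of cell cycle kinases. In Lat-M1 against PA, MIR31HG, IFNE and, by a smaller amount, MTAP were thus lower, CDKN2A was not called and CDKN2B was higher.

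**Figure D3:**
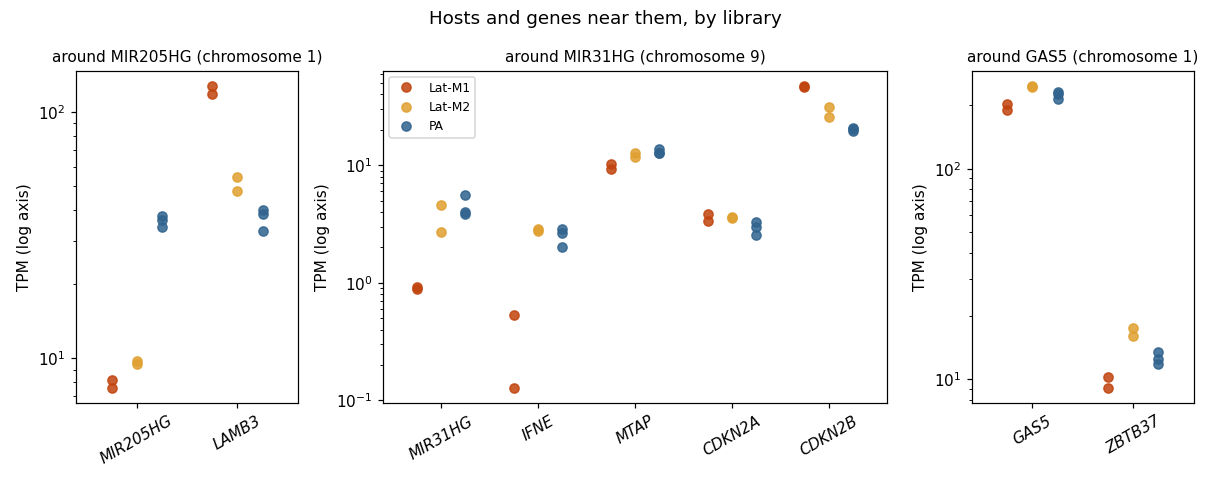
Levels in TPM (log axes) of MIR205HG, MIR31HG and GAS5 beside tested genes near them; points are libraries, coloured by group. MIR31HG and IFNE are both lowest in Lat-M1, LAMB3 and CDKN2B are highest there, and GAS5 and ZBTB37 are lowest in Lat-M1.

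The SPAG9, SLC17A5 and HACL1 genes had the patterns nearest to MIR31HG over the 7 libraries, with r of 0.9884, 0.9875 and 0.9869. HACL1, an enzyme of fatty acid alpha-oxidation, was at 16.8 and 16.7 TPM in Lat-M1, 25.2 and 22.2 TPM in Lat-M2 and 24.2 to 25.1 TPM in PA. Among other long noncoding RNAs on the list, UCA1, an RNA described in urothelial carcinoma, had a like arrangement at 0.901 and 1.28 TPM in Lat-M1, 5.27 and 5.88 TPM in Lat-M2 and 6.44 to 6.93 TPM in PA.

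MIR17HG was highest in Lat-M2. It was at 20.7 and 18.96 TPM in Lat-M1, at 26.9 and 30.3 TPM in Lat-M2, and at 22.2, 21.7 and 24.5 TPM in PA. The 3 groups did not overlap. It was higher in Lat-M2 than in Lat-M1 by 0.50 ± 0.091 (SE, adjusted p 0.0048 by limma), a call that held without each library in turn. Between Lat-M2 and PA it was 0.32 ± 0.083 (SE, adjusted p 0.046 by limma), and it passed neither after scaling (0.17, adjusted p 0.31) nor without any 1 library (0.23 to 0.40, adjusted p 0.0553 to 0.130). For Lat-M1 minus PA it was -0.19 (adjusted p 0.106) as deposited and -0.36 (adjusted p 0.027) after scaling. MYC, the transcription factor known to activate this host, was at 124.7 and 133.6 TPM in Lat-M1, 118.8 and 109.6 TPM in Lat-M2 and 88.2 to 93.7 TPM in PA, higher in both Lat-M groups (adjusted p 0.00067 and 0.019). E2F3, another known activator, was at 61.9 and 67.5 TPM in Lat-M1, 33.9 and 31.0 TPM in Lat-M2 and 27.6 to 28.6 TPM in PA, higher in Lat-M1 by 1.18 (adjusted p 1.4e-05). GPC5, the glypican gene 44.0 kb downstream of MIR17HG, was at 0.0652 TPM or less in every library. The nearest patterns were those of AC145436.1, SLC25A29 and ALG14, with r of 0.986, 0.9824 and 0.978.

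MIR22HG was at 42.0 and 40.1 TPM in Lat-M1, at 33.9 and 38.0 TPM in Lat-M2, and at 39.3, 37.5 and 39.7 TPM in PA. The Lat-M1 libraries were above the others and those of Lat-M2 overlapped with PA. None of its 3 comparisons passed the test: the difference was 0.08 in Lat-M1 minus PA (adjusted p 0.38), which became -0.10 after scaling, -0.11 in Lat-M2 minus PA (adjusted p 0.29) and -0.19 in Lat-M2 minus Lat-M1 (adjusted p 0.085). Without Lat-M2 replicate 2 that last difference was -0.27 and was called (adjusted p 0.0275 by limma). WDR81, which overlaps an exon of MIR22HG on the opposite strand, was at 12.7 to 18.8 TPM and not called, and TLCD2, 1.1 kb away on the same strand, was at 1.24 to 2.77 TPM and not called. Reads from overlapping genes cannot be assigned by strand unless the counting used it, which is not given in the sources used here. RP11-407G23.3, KRT8P46 and SNORA5B had the nearest patterns, with r of 0.9827, 0.948 and 0.9459.

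MIR210HG was at 1.66 and 1.86 TPM in Lat-M1, at 1.53 and 1.62 TPM in Lat-M2, and at 1.59, 1.95 and 1.49 TPM in PA. All groups overlapped with PA. The differences were 0.05 (-0.07 after scaling), -0.05 and -0.10 in Lat-M1 minus PA, Lat-M2 minus PA and Lat-M2 minus Lat-M1, with adjusted p of 0.83, 0.83 and 0.67, and without PA replicate 2 that of Lat-M2 minus PA was 0.017. The MIR210 hairpin entry was listed at 0 in 6 libraries and at 0.791 TPM in PA replicate 2. EPAS1, which encodes the hypoxia-inducible factor HIF-2alpha, was at 3.01 and 2.98 TPM in Lat-M1, 1.09 and 1.00 TPM in Lat-M2 and 0.406 to 0.563 TPM in PA, higher in Lat-M1 by 1.41 (adjusted p 0.00041). HIF1A was at 3.22 and 3.58 TPM in Lat-M1, 2.49 and 2.37 TPM in Lat-M2 and 1.30 to 2.16 TPM in PA, higher in Lat-M1 by 0.64 (adjusted p 0.017), and their partner ARNT was at 21.0 to 26.2 TPM and not called. On either side of MIR210HG, PHRF1 was higher in Lat-M1 than in PA by 0.78 (adjusted p 0.008) and RASSF7 by 0.56 (adjusted p 0.028, and 0.060 after scaling). Of the 7 genes known upstream of these hosts, TP63 included, 6 were tested, and 5 were higher in Lat-M1 minus PA, 2 were higher in Lat-M2 minus PA and 2 were lower in Lat-M2 minus Lat-M1, with medians of 0.57, 0.30 and -0.27 beside 0.16, 0.14 and -0.011 over all tested genes. Called upstream genes were 83.3%, 33.3% and 33.3%, beside 44.8%, 14.9% and 36.0% of all tested genes and 54.5%, 18.6% and 43.7% of protein-coding ones. The nearest patterns to MIR210HG were PPIAP21, CTD-2517O10.6 and MIR1181, with r of 0.9731, 0.9728 and 0.9591.

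MALAT1 was at 2497 and 2626 TPM in Lat-M1, at 2292 and 2396 TPM in Lat-M2, and at 2033, 1899 and 2269 TPM in PA. Every Lat-M library was above every PA library. The difference was 0.31 ± 0.081 in Lat-M1 minus PA (SE, adjusted p 0.017 by limma) but 0.13 after scaling (adjusted p 0.20), and 0.19 ± 0.081 in Lat-M2 minus PA (SE, adjusted p 0.16). The Lat-M1 call was lost without Lat-M1 replicate 1 (0.35, adjusted p 0.0535) or Lat-M1 replicate 2 (0.28, adjusted p 0.114). NEAT1 was at 108 and 112 TPM in Lat-M1, at 111 and 126 TPM in Lat-M2, and at 101, 99.3 and 118 TPM in PA. The groups overlapped, and no comparison was called, with 0.05 in Lat-M1 minus PA (-0.12 after scaling, adjusted p 0.66 as deposited), 0.16 in Lat-M2 minus PA (adjusted p 0.26) and 0.11 in Lat-M2 minus Lat-M1 (adjusted p 0.45). The ratio of MALAT1 to NEAT1, which no scaling of libraries changes, was 23.08 and 23.55 for the Lat-M1 libraries, 20.61 and 19 for those of Lat-M2, and 20.18, 19.12 and 19.21 for those of PA. Lat-M1 lay above the other groups in this ratio, while Lat-M2 overlapped with PA. A short lincRNA entry on the opposite strand of MALAT1, AP000769.7, was at 0.713 TPM or less.

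Of 10 nuclear speckle proteins, all tested, 5 were higher and none lower in Lat-M1 minus PA, 3 were higher in Lat-M2 minus PA, and 1 was higher and 1 lower in Lat-M2 minus Lat-M1, with medians of 0.18, 0.13 and 0.012 beside 0.16, 0.14 and -0.011 over all tested genes. The shares called, 50%, 30% and 20%, stand beside 44.8%, 14.9% and 36.0% of all tested genes and 54.5%, 18.6% and 43.7% of protein-coding ones. SRRM2, a scaffold of speckles, was higher in Lat-M1 by 0.54 (adjusted p 0.0024) and in Lat-M2 by 0.50 (adjusted p 0.015), and SON, the other scaffold, by 0.33 and 0.36 (adjusted p 0.029 and 0.047), the last 2 not passing after scaling (adjusted p 0.079 and 0.058). Of 11 paraspeckle proteins, all tested, 4 were higher in Lat-M1 minus PA, 1 was higher in Lat-M2 minus PA and 3 were lower in Lat-M2 minus Lat-M1, with medians of 0.14, 0.13 and -0.0050. Their called shares were 36.4%, 9.09% and 27.3%, each below that of all tested genes. RBM14 was higher in Lat-M1 by 0.56 (adjusted p 0.00043), HNRNPH3 by 0.38 (adjusted p 0.0027), and SFPQ by 0.25 (adjusted p 0.036, and 0.25 after scaling). After scaling, 1 speckle protein was higher and 1 lower in Lat-M1 minus PA, and 2 paraspeckle proteins were higher and 1 lower. In Lat-M2 minus PA scaling left 2 speckle proteins and 1 paraspeckle protein higher. Of the genes beside NEAT1 and MALAT1, FRMD8, LTBP3 and EHBP1L1 were higher in Lat-M1 than in PA by 0.43, 0.49 and 0.50 (adjusted p 0.007, 0.0079 and 0.0019). The nearest patterns to MALAT1 were AOC2, RP11-540B6.6 and AHSA2, with r of 0.9945, 0.9919 and 0.9914, and those to NEAT1 were RNU6-485P, RP11-16C1.2 and AL353626.2, with r of 0.981, 0.9789 and 0.9722.

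The 2 snoRNA hosts were placed in opposite order between the Lat-M groups. GAS5 was at 190.9 and 204.1 TPM in Lat-M1, at 244 and 248 TPM in Lat-M2, and at 227, 215 and 231 TPM in PA. The 3 groups did not overlap. It was higher in Lat-M2 than in Lat-M1 by 0.32 ± 0.063 (SE, adjusted p 0.0072 by limma), a call lost without Lat-M1 replicate 1 (0.27, adjusted p 0.0602). It fell by 0.18 on the log2 scale in Lat-M1 against PA (SE 0.057, adjusted p 0.034 by limma; -0.36 after scaling, adjusted p 0.0014), and that call was lost without Lat-M1 replicate 1, Lat-M1 replicate 2, PA replicate 1 or PA replicate 3 (-0.23 to -0.14, adjusted p 0.0682 to 0.219). In Lat-M2 minus PA the difference was 0.13 as deposited (adjusted p 0.16) and -0.02 after scaling.

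SNHG1 was at 119.0 and 118.6 TPM in Lat-M1, at 97.7 and 106.7 TPM in Lat-M2, and at 105.0, 101.6 and 108.3 TPM in PA. The Lat-M1 libraries were above all others, and Lat-M2 overlapped with PA. It was lower in Lat-M2 than in Lat-M1, with a difference of -0.22 ± 0.065 (SE, adjusted p 0.037 by limma; -0.19 after scaling, adjusted p 0.10), a call that held only without Lat-M2 replicate 2 among the libraries left out (adjusted p 0.0547 to 0.142 without any other). Between Lat-M1 and PA the difference was 0.18 ± 0.059 (SE, adjusted p 0.045 by limma), but 0.00076 after scaling (adjusted p 0.99) and negative after the 4 structural RNAs were left out or protein-coding genes and members alone were rescaled (-0.02 and -0.04). It was also lost without either Lat-M1 library or any 1 PA library, with adjusted p of 0.0755 to 0.170. Between Lat-M2 and PA it was -0.04 (adjusted p 0.68), and 0.024 without Lat-M2 replicate 1. The ratio of GAS5 to SNHG1 was 1.60 and 1.72 for the Lat-M1 libraries, 2.50 and 2.32 for those of Lat-M2, and 2.16, 2.12 and 2.14 for those of PA. The groups did not overlap in this ratio, which depends on no scaling.

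ZBTB37, which overlaps an exon of GAS5 on the opposite strand, was at 9.11 and 10.3 TPM in Lat-M1, 17.6 and 16.0 TPM in Lat-M2 and 11.8 to 13.5 TPM in PA. It differed by -0.34 in Lat-M1 minus PA (adjusted p 0.015), by 0.39 in Lat-M2 minus PA (adjusted p 0.029) and by 0.73 in Lat-M2 minus Lat-M1 (adjusted p 0.0011), the same directions as GAS5 as deposited. The GAS5 difference in Lat-M2 minus PA was itself not called, and it was negative after scaling. As for MIR22HG, reads in the overlap cannot be assigned unless the counting used strand, which is not given in the sources used here. GAS5-AS1, which also overlaps GAS5 on the opposite strand, was at 2.81 to 4.98 TPM. Beside SNHG1, SLC3A2, an amino acid transporter subunit gene that starts 0.2 kb away on the opposite strand, and STX5 were higher in Lat-M1 than in PA by 0.38 and 0.36 (adjusted p 0.0055 and 0.0034), and WDR74 fell by 0.36 on the log2 scale (adjusted p 0.032). Over all 20 neighbour genes of the hosts 18 were tested, and 10 were higher and 5 lower in Lat-M1 minus PA, 4 higher in Lat-M2 minus PA, and 4 higher and 7 lower in Lat-M2 minus Lat-M1, with medians of 0.38, 0.15 and -0.19 beside 0.16, 0.14 and -0.011 over all tested genes. These calls are 83.3%, 22.2% and 61.1% of the tested neighbours, beside 44.8%, 14.9% and 36.0% of all tested genes. Protein-coding genes alone had 54.5%, 18.6% and 43.7% called. With scaling, 9 were higher and 5 lower, 3 higher and 1 lower, and 4 higher and 7 lower in the same order of comparisons. The nearest patterns to GAS5 were C6orf52, ZNF254 and RP11-267N12.3, with r of 0.9936, 0.9932 and 0.9925, and those to SNHG1 were AC009299.3, UGT1A2P and RBM4B, with r of 0.9852, 0.984 and 0.9815.

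Of 24 symbols searched for other snoRNA host genes, RACK1 and GNB2L1 being names of the same gene, 19 were tested. Against PA, in Lat-M1 8 were higher and 1 lower and in Lat-M2 2 were higher, and in Lat-M2 minus Lat-M1 3 were higher and 4 lower, with medians of 0.06, 0.083 and -0.04 beside 0.16, 0.14 and -0.011 over all tested genes. GNB2L1, the ribosomal scaffold RACK1, was higher in Lat-M1 by 0.83 (adjusted p 2.4e-05) and in Lat-M2 by 0.37 (adjusted p 0.0074), and SNHG14 was higher in Lat-M1 by 0.77 (adjusted p 0.00036). ZFAS1 was at 117.1 and 132.0 TPM in Lat-M1, 172 and 170.1 TPM in Lat-M2 and 166 to 172 TPM in PA, a fall of 0.44 on the log2 scale in Lat-M1 (adjusted p 0.0013). EIF4A2, a translation factor gene, was higher in Lat-M1 by 0.32 (adjusted p 0.0015, and 0.078 after scaling). After scaling the counts in Lat-M1 minus PA were 4 higher and 6 lower, and 1 was higher in Lat-M2 minus PA. As deposited, 47.4%, 10.5% and 36.8% of the 19 were called, beside 44.8%, 14.9% and 36.0% of all tested genes.

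Among the factors that act on spliced snoRNA hosts, 3 of 10 nonsense-mediated decay genes were higher and 1 was lower in Lat-M1 minus PA, 1 was higher in Lat-M2 minus PA and 1 was higher in Lat-M2 minus Lat-M1, with medians of 0.13, 0.089 and -0.015. This makes 40%, 10% and 10% called, beside 44.8%, 14.9% and 36.0% of all tested genes and 54.5%, 18.6% and 43.7% of protein-coding ones. SMG1, UPF1 and UPF2 were higher in Lat-M1 by 0.36, 0.32 and 0.27 (adjusted p 0.015, 0.020 and 0.024), and UPF3B fell by 0.28 on the log2 scale (adjusted p 0.020); after scaling 1 was higher and 3 were lower. For box C/D snoRNP proteins 5 symbols were searched, NHP2L1 and SNU13 being names of the same gene, and 4 were listed and tested. NHP2L1, NOP58 and FBL were higher in Lat-M1 by 0.54, 0.40 and 0.34 (adjusted p 0.00021, 0.0038 and 0.0021), while NOP56 was not called there. Called shares of this list, 75%, 0% and 50% in the same order of comparisons, stand beside the all-gene and protein-coding shares above. After scaling, 3 were higher and 1 lower in Lat-M1 minus PA, and none was higher and 1 was lower in Lat-M2 minus PA.

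Of 36 symbols searched for other microRNA host genes, some of them older and newer names of the same gene, 19 were listed and 12 tested. Against PA, in Lat-M1 5 were higher and 1 lower, in Lat-M2 2 were higher and 1 lower, and in Lat-M2 minus Lat-M1 1 was higher and 6 were lower, with medians of 0.12, 0.067 and -0.16 beside 0.16, 0.14 and -0.011 over all tested genes. Of the 12 tested hosts 50%, 25% and 58.3% were called, beside 44.8%, 14.9% and 36.0% of all tested genes. MIR155HG, the host of the immune-cell microRNA miR-155, was at 16.6 and 17.4 TPM in Lat-M1, 7.69 and 8.58 TPM in Lat-M2 and 16.5 to 19.5 TPM in PA, lower in Lat-M2 than in PA (log2 difference -1.05, adjusted p 0.00072). MIR4435-1HG and CTDSP2, a phosphatase gene that hosts miR-26a-2, were higher in Lat-M1 by 0.71 and 0.75 (adjusted p 0.00075 and 0.00028), and MIR600HG fell by 0.40 on the log2 scale (adjusted p 0.0043). After scaling, 4 hosts were higher and 3 lower in Lat-M1 minus PA, none was higher and 1 was lower in Lat-M2 minus PA, where the median became -0.075, and 2 were higher and 6 lower in Lat-M2 minus Lat-M1.

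For microRNA processing and Argonaute proteins 16 symbols were searched, the Argonaute genes under both older and newer names, and 12 were listed and tested. Of these, in Lat-M1 minus PA 8 were higher and none was lower, in Lat-M2 minus PA 1 was higher, and in Lat-M2 minus Lat-M1 1 was higher and 5 were lower, with medians of 0.35, 0.19 and -0.21 beside 0.16, 0.14 and -0.011 over all tested genes. XPO5, which exports hairpins from the nucleus, was higher in Lat-M1 than in PA by 0.66 (adjusted p 0.00018), AGO2, the slicing Argonaute, by 0.59 (adjusted p 0.00039), DGCR8, which binds hairpins for cutting, by 0.42 (adjusted p 0.002) and DICER1, which makes the mature duplex, by 0.38 (adjusted p 0.0028). In Lat-M2 TARBP2, a partner of DICER1, was higher than in PA by 0.49 (adjusted p 0.0047). After scaling, 6 of the 12 were higher and 2 lower in Lat-M1 minus PA. As deposited, 66.7%, 8.33% and 50% were called, beside 44.8%, 14.9% and 36.0% of all tested genes and 54.5%, 18.6% and 43.7% of protein-coding ones.

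Of 38 symbols searched for further long noncoding RNAs, some of them older and newer names of the same gene, 30 were listed and 19 tested. In Lat-M1 minus PA 11 were higher and 3 lower, in Lat-M2 minus PA 3 were higher, and in Lat-M2 minus Lat-M1 3 were higher and 7 lower, with medians of 0.41, 0.04 and -0.21 beside 0.16, 0.14 and -0.011 over all tested genes. The called shares were 73.7%, 15.8% and 52.6%, beside 44.8%, 14.9% and 36.0% of all tested genes. After scaling, 10 were higher and 4 lower in Lat-M1 minus PA, 1 was higher and 2 were lower in Lat-M2 minus PA, where the median became -0.085, and 4 were higher and 8 lower in Lat-M2 minus Lat-M1. LUCAT1 was at 7.85 and 9.24 TPM in Lat-M1, 2.27 and 2.42 TPM in Lat-M2 and 2.22 to 2.82 TPM in PA, higher in Lat-M1 by 1.48 (adjusted p 0.00011), and LINC00152 was higher there by 1.36 (adjusted p 1.8e-05). UCA1, whose levels are given above, differed by -1.89 (adjusted p 2.0e-05). JPX, an RNA of the X inactivation centre, fell by 0.65 on the log2 scale in Lat-M1 (adjusted p 0.00042). Over all 1913 tested long noncoding genes 29.2% were called in Lat-M1 minus PA, 7.95% in Lat-M2 minus PA and 23.9% in Lat-M2 minus Lat-M1, against 54.5%, 18.6% and 43.7% of 11483 tested protein-coding genes. Long noncoding genes include many at low TPM, and a comparison at matched levels was not made.

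**Figure D4:**
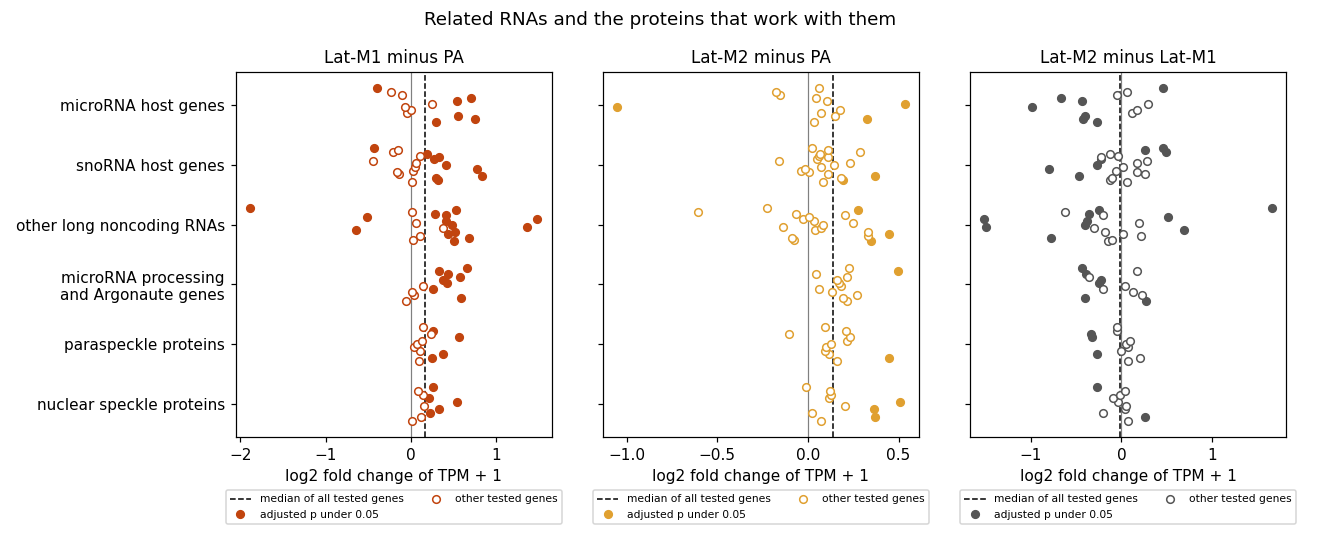
Differences of log2(TPM + 1) (horizontal axes) for tested genes of 6 lists; each point is a gene, filled where its adjusted p was under 0.05, and the dashed line is the median of all tested genes, at 0.16, 0.14 and -0.011 from left to right. In Lat-M1 minus PA no called gene of the processing, paraspeckle or speckle lists lies below 0, a split that changes after scaling, when 2, 1 and 1 of their genes are called lower.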

How the data were processed

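RNA sequencing measured gene expression in 7 libraries. Per the labels' protocols, libraries were made from total RNA with a TruSeq or a NEBNext kit, without naming the kit of each library. If the kit differed by group, a kit difference and a group difference cannot be told apart. TopHat2 2.2.4 and hg19 are named in the submitters' processing notes, and the quantifier and annotation are not given in the sources used here. The deposited values are TPM, a unit taken from their sum of 1000000 per library; the authors' filters are not stated.

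From these, log2(TPM + 1) was computed, and the 16724 of 33117 identifiers with a mean of at least 1 TPM were tested with limma 3.58.1 in R 4.3.3 (trend and robust options, 3 groups sharing 1 spread), with Benjamini-Hochberg adjustment and a threshold of 0.05. A fold change on this scale understates the change of low genes. All 9 members passed the filter. All were named whatever their result, with the 5 genes most alike MIR205HG by Pearson's r, the 3 most alike each other member, the neighbour and upstream genes, and up to 4 members of each list; a few of these genes are counted but not reported here by name. The members and lists were chosen with earlier results of these data known.

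Positions come from GENCODE v29 (GRCh38), matched by identifier, and sequences from RefSeq (GRCh38.p14); the submitters' build differs, so no position was read from the files. Libraries with the same last number in their name showed no shared deviation from group means, with correlations of -0.082 to 0.0312. This does not show that they were unpaired by design. In groups of 2 the deviations mirror each other, so few of these correlations are independent. Alternatives were a pseudocount of 0.1, no filter, a minimum mean of 5 TPM, 3 rescalings, the compared groups alone, limma without trend and robust options, a block on the last number, and leaving out each library.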

Additional observations from a re-analysis of the deposited data

Results flagged for a closer look

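For 5 members the difference from PA was not the same in the 2 Lat-M groups, by the main limma test of Lat-M2 minus Lat-M1. The log2 difference was 0.262 for MIR205HG, 0.504 for MIR17HG, 1.27 for MIR31HG and 0.316 for GAS5, all higher in Lat-M2. It was -0.217 for SNHG1, lower in Lat-M2. Only the calls of MIR17HG and MIR31HG held under every alternative that tested them. That of MIR205HG was lost with the compared groups alone (adjusted p 0.0899 by limma) and with the replicate block (adjusted p 0.0929). That of SNHG1 was lost under every rescaling and with the replicate block (adjusted p 0.136 by limma). Both were also lost without most single libraries, and that of GAS5 without Lat-M1 replicate 1. Of all tested genes 36.0%, and of tested long noncoding genes 23.9%, passed the main test, so a difference between the Lat-M groups was common in these libraries.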

How the results depend on the processing

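Under limma, MIR31HG was called lower in Lat-M1 than in PA, and MIR17HG higher in Lat-M2 than in Lat-M1, under every alternative that tested them. Of 8 members, 4 were called in Lat-M1 minus PA; the number was 2 without trend and robust options, 2 with the replicate block and 1 to 4 with a library left out. The 1 call in Lat-M2 minus PA became 0 without a filter, with median-ratio scaling, without the 4 structural RNAs, with protein-coding genes and members alone, with the 2 compared groups alone, without trend and robust options, with the replicate block and with any 1 library left out (range 0 to 0), where 1 to 3 members had an unadjusted p under 0.05. The 5 calls in Lat-M2 minus Lat-M1 became 3 with the 2 groups alone, 3 with the replicate block and 2 to 5 with a library left out. All-gene calls with a library left out ran from 4679 (without Lat-M1 replicate 2) to 7932 against 7499 in Lat-M1 minus PA, from 492 (without Lat-M2 replicate 1) to 3162 against 2494 in Lat-M2 minus PA, and from 3815 (without Lat-M1 replicate 2) to 5852 against 6022 in Lat-M2 minus Lat-M1, a lone library being assumed to vary like the other groups. In Lat-M2 minus PA they were also 1529 without a filter, 1518 with the 2 groups alone and 943 with the replicate block; 1558 and 1564 without either Lat-M1 library and 1234, 1125 and 1275 without each PA library. Without Lat-M1 replicate 1 they were 3947 in Lat-M2 minus Lat-M1. Signs turned in Lat-M1 minus PA, under median-ratio scaling, without structural RNAs and with protein-coding genes and members alone in that order, for MIR22HG (-0.0966, -0.118 and -0.138), MIR210HG (-0.0678, -0.0885 and -0.108) and NEAT1 (-0.122, -0.143 and -0.163), and under the last pair for SNHG1 (-0.0201 and -0.0404). MIR210HG was -0.00408 there with the replicate block and -0.00484 to 0.117 with a library left out. In Lat-M2 minus PA GAS5 was -0.0213 under median-ratio scaling, and with a library left out SNHG1 was -0.102 to 0.0238, MIR31HG -0.543 to 0.050 and MIR210HG -0.104 to 0.017. The cause was not tested. TPM holds no read counts, so the precision that depth gives to MIR210HG and MIR31HG, the lowest members, is unknown.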

Other observations

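SNORD39, a small nucleolar RNA entry within an intron of MIR31HG on the same strand, was listed at 1.24 and 2.58 TPM in Lat-M1, 7.77 and 13.4 TPM in Lat-M2 and 9.47, 3.43 and 14.0 TPM in PA. Both Lat-M1 libraries were below all others, as for MIR31HG and IFNE. It was noticed after the values were seen and is given without a test.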
